A study of Rattus norvegicus with 65 samples.

Results

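The RNA of GABA and glutamate receptor subunits was examined in the hypothalamus of 65 rats. The members are 37 genes chosen by symbol from the table of 38513 genes, and they were reported by subfamily: 4 AMPA, 7 NMDA, 5 kainate and 1 delta receptor genes, 6 metabotropic glutamate receptor genes, 12 GABAA and 2 GABAB receptor genes. All 37 symbols were present in the table and all 37 passed the filter on low counts. The study asked how weight loss surgery and gut hormone treatment alter the hypothalamic transcriptome of male Wistar rats, which were 9 to 10 weeks old at the start and made obese on a high-fat diet over 6 weeks. There were 14 RYGB-treated rats (Roux-en-Y gastric bypass), 11 sham-operated rats, and 7 BWM rats. The study lists BWM rats as sham-operated too, with food restricted so that body weight matched that of the bypass group. A further 8 rats received saline, 4 received PYY3-36 at 0.1 mg/kg/day, 5 received liraglutide at 0.4 mg/kg/day and 10 received both hormones. After the intervention the RYGB, sham, saline and hormone groups could choose freely between high-fat and low-fat diets. The remaining 6 rats were labelled lean, and the labels do not give their diet. Tissue was taken after 4 weeks of intervention and 10 h of fasting. Each library came from 1 rat and held between 20040821 and 36539714 counts on genes. The animals belonged to 2 experimental periods called batch A (37 rats) and batch B (28 rats). All BWM and lean rats were in batch A, all rats given PYY3-36 or liraglutide alone were in batch B, and the other groups were split, with 11 and 3 RYGB-treated and 5 and 6 sham rats in batches A and B.

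Glutamate opens AMPA, NMDA and kainate channels, which excite neurons and differ in speed, calcium entry and their dependence on voltage, while metabotropic glutamate receptors act through G proteins. GABA opens the chloride channels of GABAA receptors, assembled from alpha, beta and a further subunit, and acts more slowly through the G protein-coupled GABAB receptor. In the hypothalamus most fast input to the neurons that govern feeding is carried by these receptors, and many of those neurons release GABA or glutamate themselves.

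The labelled tissue was checked against a list of 15 genes of hypothalamic neurons, such as Pomc, Avp, Oxt and Pmch. No gene of the list was missing from all libraries, but 4 of the 15 were at 0 in at least 1 library: Hcrt, Sim1 and Fezf1 in 2 libraries each and Kiss1 in 10. A marker score, the mean of log2(CPM + 1) over the list, where CPM are read counts scaled to library size, was under 3 in 13 libraries, after which came a gap from 2.92 to 3.41. These 13 libraries were 4 of 11 sham, 2 of 8 saline, 2 of 6 lean, 2 of 5 liraglutide, 1 of 7 BWM, 1 of 4 PYY3-36 and 1 of 10 PYY3-36 + liraglutide libraries, and 0 of 14 RYGB libraries. Summed striatal markers reached 3772 CPM in a sham and 4434 CPM in a BWM library, against at most 502 CPM in RYGB libraries, and summed cortical markers reached 1920 CPM in a sham and 960 CPM in an RYGB library. Their values are given beside the results that rest on them.

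Promoter sequence was found in the RefSeq table of build GRCr8 for 26 of the 37 genes. The 250 bases before the start of the 3 genes that passed the test in RYGB vs. sham are shown first, followed by those of Gabrq and Gabre, a pair of GABAA genes with lower medians in libraries low in hypothalamic markers. Each is written 5′ to 3′ on the strand of the gene, and capitals mark 3 motifs read on either strand. The GC box was searched as GGGCGG. The second motif was CCAAT. The TATA box was searched as TATAAA. Grik3 lies at chr5:143052192-143052441 (+), Grin3a at chr5:69001559-69001808 (-), Gabra6 at chr10:27327235-27327484 (-), Gabrq at chrX:155738186-155738435 (+) and Gabre at chrX:155120722-155120971 (-).
Grik3: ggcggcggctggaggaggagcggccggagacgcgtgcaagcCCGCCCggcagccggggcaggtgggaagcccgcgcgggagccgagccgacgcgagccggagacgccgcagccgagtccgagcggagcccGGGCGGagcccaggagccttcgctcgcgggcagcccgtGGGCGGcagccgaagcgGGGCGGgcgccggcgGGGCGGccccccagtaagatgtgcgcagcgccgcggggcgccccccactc
Grin3a: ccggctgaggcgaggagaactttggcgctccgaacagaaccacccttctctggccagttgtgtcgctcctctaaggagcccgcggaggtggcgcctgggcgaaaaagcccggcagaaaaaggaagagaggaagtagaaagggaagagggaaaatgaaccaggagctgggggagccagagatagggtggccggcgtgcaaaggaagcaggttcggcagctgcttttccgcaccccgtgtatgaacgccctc
Gabra6: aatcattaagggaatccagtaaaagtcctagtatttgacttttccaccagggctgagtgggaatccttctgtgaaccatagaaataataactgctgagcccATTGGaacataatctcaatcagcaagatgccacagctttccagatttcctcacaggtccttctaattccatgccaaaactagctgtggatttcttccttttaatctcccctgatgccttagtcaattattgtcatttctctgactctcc
Gabrq: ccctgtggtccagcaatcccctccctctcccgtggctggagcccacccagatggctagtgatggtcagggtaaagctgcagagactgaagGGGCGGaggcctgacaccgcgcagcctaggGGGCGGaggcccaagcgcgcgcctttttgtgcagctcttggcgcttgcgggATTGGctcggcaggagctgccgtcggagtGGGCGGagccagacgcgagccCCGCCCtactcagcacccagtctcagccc
Gabre: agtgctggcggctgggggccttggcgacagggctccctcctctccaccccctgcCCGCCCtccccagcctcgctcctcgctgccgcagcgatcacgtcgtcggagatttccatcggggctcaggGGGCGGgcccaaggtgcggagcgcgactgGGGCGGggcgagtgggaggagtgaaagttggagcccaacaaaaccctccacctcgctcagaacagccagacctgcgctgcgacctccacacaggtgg
The Grik3 window held 5 GC boxes and was 81.6% G and C. The Grin3a window (60.4% G and C) held none of the 3 motifs, and the Gabra6 window (41.2%) held 1 CCAAT motif. Gabrq (68.0%) had 4 GC boxes and 1 CCAAT motif, and Gabre (69.6%) had 3 GC boxes. The median of all 33469 promoters was 51.2% G and C. GGGCGG was present in 30.5% of all promoters and in 11 of 26 member promoters, CCAAT in 34.0% and 9, and TATAAA in 12.9% and 1. These matches describe the letters only.

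Levels were compared between genes as TMM-scaled CPM per kilobase of exon, with the SD over 65 libraries. The length is that of all annotated exons of a gene combined, so the order of genes depends on the annotation. For example, Grin2c and Grin2b had similar mean counts (2140 and 2078), and their levels per kb differ through lengths of 4929 and 18147 bases. Gabbr1, the ligand-binding subunit of the GABAB receptor, had the highest level of all 37 genes at 221 ± 34.3 CPM per kb. Its partner Gabbr2, which couples to the G protein, reached 32.7 ± 11.7 CPM per kb and was lower in 65 of 65 libraries. Grin1, the subunit that every NMDA receptor needs, followed at 65.4 ± 15.4 CPM per kb and made up 69.4% of the summed NMDA level. Of the NMDA subunits that bind glutamate, Grin2c had 15.8 ± 4.27 CPM per kb, while Grin2b (4.16 ± 1.99) and Grin2d (4.01 ± 1.65) did not keep their order, since Grin2b was higher in 21 of 65 libraries. Grin2a had 1.36 ± 1.15 CPM per kb, and the glycine-binding subunits Grin3a and Grin3b had 3.04 ± 1.59 and 0.325 ± 0.180 CPM per kb.

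Among AMPA receptor genes Gria2, whose subunit keeps calcium out of the channel, was highest at 46.8 ± 15.9 CPM per kb and exceeded Gria1 in 64 of 65 libraries. Gria3 and Gria4 were not separable, with 18.0 ± 8.57 and 17.1 ± 3.74 CPM per kb and Gria3 higher in 26 of 65 libraries. The auxiliary-type kainate subunit gene Grik5 held 60.2% of the kainate level (40.4 ± 10.1 CPM per kb), above Grik2, Grik4 and Grik1, and Grik3 was lowest at 2.04 ± 1.49 CPM per kb. Grid1, the delta receptor gene, had 9.63 ± 2.96 CPM per kb. Metabotropic receptor genes ran from Grm4 at 9.01 ± 4.54 to Grm8 at 2.57 ± 1.21 CPM per kb, with Grm3 above Grm5 in 35 and Grm5 above Grm7 in 36 of 65 libraries. Among GABAA genes Gabrg1, a gamma subunit, led at 31.6 ± 8.15 CPM per kb. Gabrb2 and Gabra2 followed at 22.4 and 21.3 CPM per kb, close to Gabra5, with Gabrb2 above Gabra2 in 38 and Gabra2 above Gabra5 in 33 of 65 libraries. Gabra6 was lowest at a median of 0.163 CPM per kb.

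**Figure D1:**
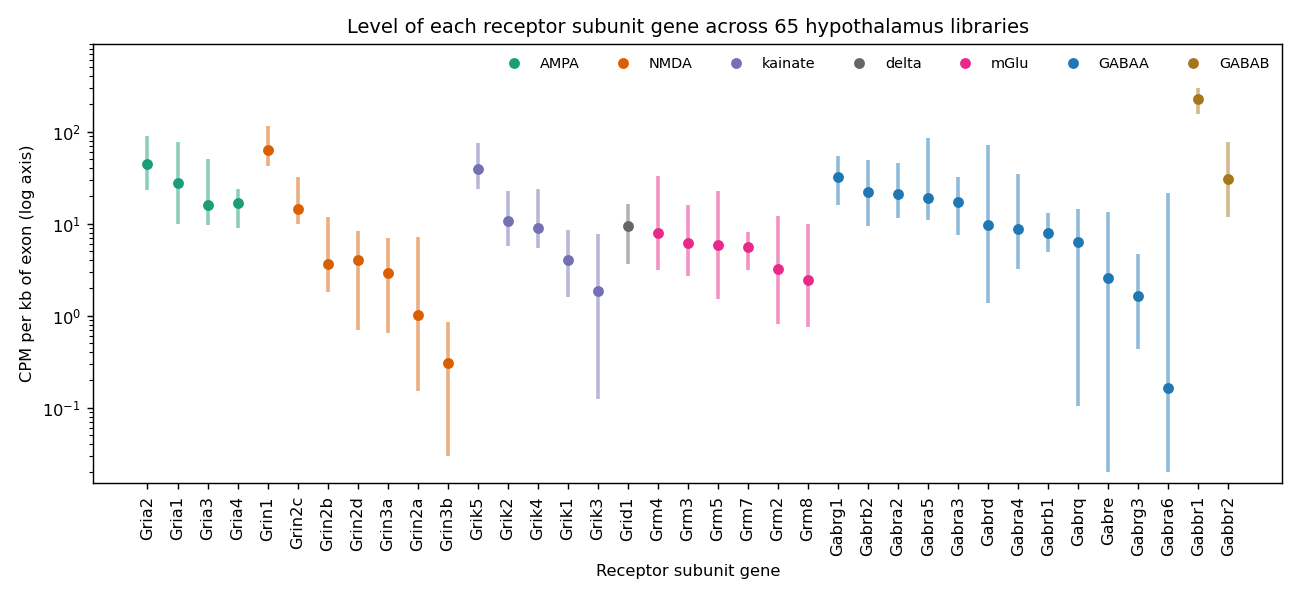
Level of each of the 37 genes in CPM per kb of exon on a log axis, grouped by subfamily, with the median (point) and the lowest to highest library (bar) of 65 libraries, where a lowest value of 0 is drawn at 0.02. Gabbr1 and Grin1 lie highest, and the longest bars belong to GABAA genes, Grin2a, Grin3b and Grik3.

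The genes differed widely in how far they varied between rats. Gabbr1 had a coefficient of variation of 15.6% over 65 libraries and a highest value 1.92 times the lowest, and Grm7, a presynaptic metabotropic receptor, had 18.7%. Gabra6 had 361%, Gabrd 105%, Grin2a 84.8%, Gabre 83.0% and Grik3 73.1%. Gabrq, the theta subunit gene, differed 138-fold between its lowest and highest library.

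Part of this spread ran with the marker score. In the 13 libraries with a score under 3, the median level was 6.27 CPM for Gabrq (0.640 to 29.7) against 46.6 CPM (11.01 to 88.3) in the other 52. Gabre, the epsilon subunit gene, had 1.14 against 8.47 CPM and Grin2d 18.4 against 46.7 CPM. In the opposite direction, Gabrd, the delta subunit of extrasynaptic GABAA receptors, had a median of 64.3 against 14.6 CPM and Gabra4, its frequent partner, 122.8 against 50.2 CPM. Grin2a had 20.5 against 8.50 CPM and Grin2b 111.1 against 58.9 CPM. Gabrq and Gabre were thus low, and Gabrd, Gabra4, Grin2a and Grin2b high, in libraries with little RNA of hypothalamic markers. In whole tissue, fewer cells of a type and less RNA per cell cannot be told apart.

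**Figure D2:**
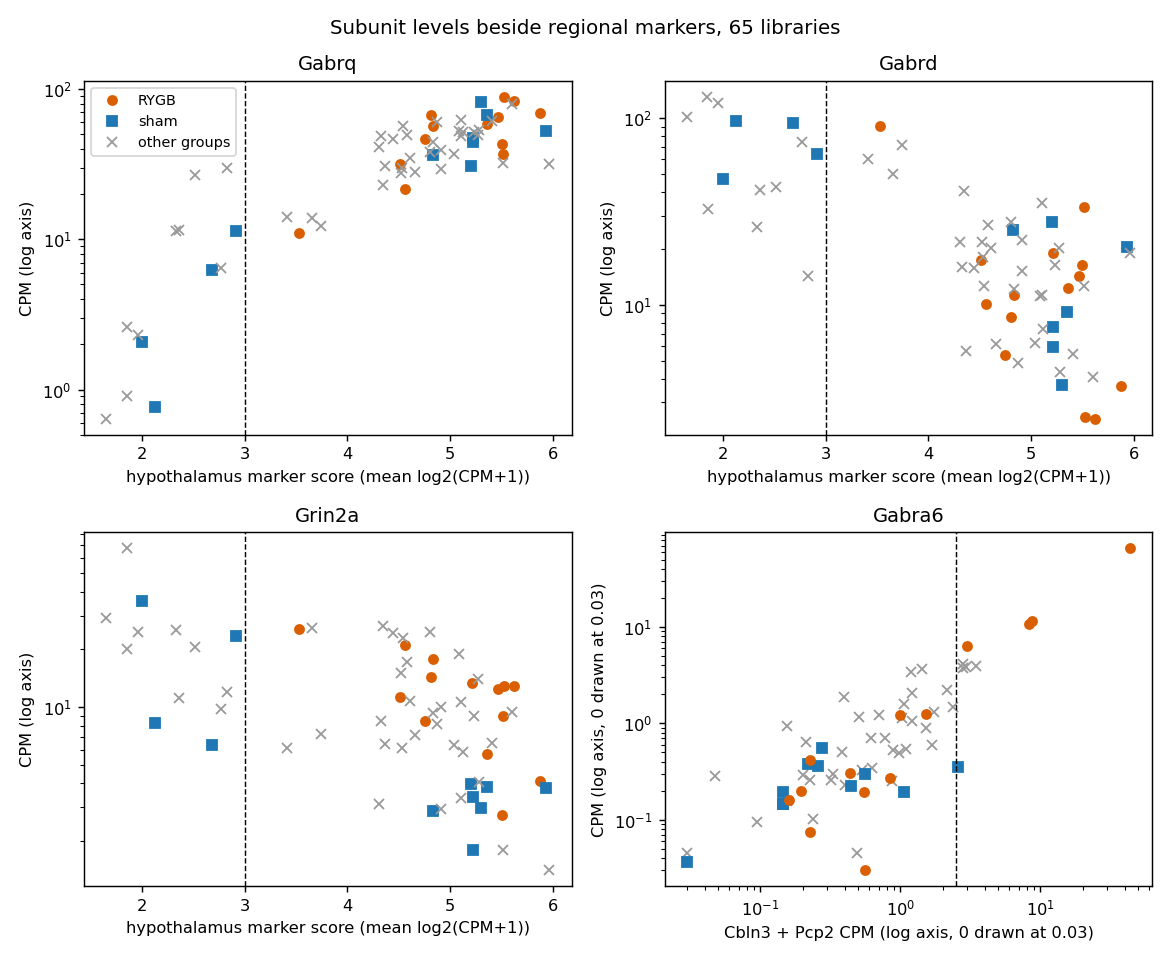
CPM of Gabrq, Gabrd and Grin2a (log axes) against the hypothalamus marker score, and of Gabra6 against the summed CPM of the cerebellar genes Cbln3 and Pcp2 (log axes), 1 point per library, with RYGB, sham and all other groups marked. The dashed lines are at a score of 3 and at 2.5 CPM. Gabrq is lower and Gabrd higher left of a score of 3, where no RYGB library lies, and the 4 RYGB libraries with Gabra6 of at least 6.30 CPM are right of 2.5 CPM.

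The comparison of RYGB with sham asks which transcripts differ after gastric bypass in rats that had surgery of either kind. In RYGB-treated rats 3 of 37 subunit genes were higher and 0 were lower at an adjusted p under 0.05 by edgeR's quasi-likelihood test with Benjamini-Hochberg adjustment over 21871 genes. Of all genes tested 13% were called, 6.52% as higher and 6.53% as lower, against which 3 of 37 is to be read. The 3 were Grik3, Grin3a and Gabra6, from the kainate, NMDA and GABAA subfamilies. The same 3 passed with an absolute log2 fold change over 1, which 2.37% of all genes did. The median log2 fold change was -0.03 over the 37 genes and -0.02 over all genes, with 18 members higher and 19 lower. This tally depended on the libraries and covariates, with 28 higher and 9 lower (median 0.24) without the 13 libraries low in hypothalamic markers and again 28 and 9 (median 0.13) with pituitary, choroid plexus and meninges scores as covariates.

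Grik3 encodes a kainate receptor subunit of low agonist affinity (RefSeq gene on chromosome 5, 143500441 to 143715546 of Rnor_6.0, plus strand). Its level was 1.45 CPM in the lowest, 10.9 CPM in the median and 34.8 CPM in the highest RYGB library, and 0.549, 3.24 and 11.9 CPM in sham libraries. The groups overlapped, with 13 of 14 RYGB libraries above the sham median and 5 of 14 above the highest sham library. The fitted difference was 1.75 ± 0.40 (log2 fold change ± SE, edgeR adjusted p = 0.00407). It was 1.82 ± 0.48 (edgeR adjusted p = 0.0109) without the libraries low in hypothalamic markers. Leaving out each library in turn gave log2 fold changes between 1.62 and 2.02 and edgeR adjusted p between 0.000479 and 0.0116.

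Grin3a, whose subunit lowers calcium entry through NMDA receptors (chromosome 5, 64928620 to 65073012, minus strand), had 2.82, 11.4 and 22.7 CPM in the lowest, median and highest RYGB library. In sham libraries it had 2.08, 3.14 and 18.1 CPM, the highest being a library low in hypothalamic markers. Again 13 of 14 RYGB libraries were above the sham median, but 1 of 14 was above the highest sham library. The log2 fold change was 1.05 ± 0.31 (edgeR adjusted p = 0.0209), and 1.28 ± 0.35 (adjusted p = 0.0141) without libraries low in hypothalamic markers. Leaving out each library in turn gave edgeR adjusted p between 0.00115 and 0.04995. The table lists other genes on the same strand within the span of Grin3a (Ppp3r2 and LOC680816) and of Grik3 (LOC108351031), and reads on shared exons were divided between genes.

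Gabra6, the alpha subunit gene typical of cerebellar granule cells (chromosome 10, 27847447 to 27862896, minus strand), had the largest fitted change of the 37 genes at 4.67 ± 0.95 (edgeR adjusted p = 0.00193). Its values were not spread over the group. RYGB replicate 3 had 65.2 CPM, replicate 6 had 11.6 CPM, replicate 2 had 10.8 CPM and replicate 13 had 6.30 CPM, while the other 10 RYGB libraries lay between 0 and 1.24 CPM with a median of 0.234 CPM. Sham libraries lay between 0.0363 and 0.549 CPM with a median of 0.221 CPM. The 4 high libraries were thus above all sham libraries and the median of the other 10 was near that of sham.

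Markers of cerebellum were set beside Gabra6. Of a list of 6, Cbln3 of granule cells and Pcp2 of Purkinje cells were higher in RYGB (log2 fold changes 2.61 ± 0.85 and 3.45 ± 0.88, edgeR adjusted p = 0.0348 and 0.00817), and 4 did not pass the test. Over the list 3 of 6 were higher and 3 lower, with a median log2 fold change of 0.17. Barhl1, Cbln3 and Pcp2 were at 0 in 5, 7 and 8 of 65 libraries, and the summed level of the list was 140 to 359 CPM in RYGB and 86.8 to 491 CPM in sham. Cbln3 and Pcp2, picked because they passed the test in this same comparison, were then summed. Their sum was 43.8 CPM in RYGB replicate 3, 8.68 in replicate 6 and 8.29 in replicate 2, the 3 highest of all 65 libraries. It was 2.9998 CPM in replicate 13. In these 4 libraries Gabra6 was 3.01, 3.03, 3.02 and 3.57 times Cbln3. Among the other libraries with Cbln3 above 0, this ratio ran from 0 (RYGB replicate 1) to 18.0 (saline replicate 8). It was 0.152 in Sham replicate 3, where Cbln3 was 2.31 CPM. The origin of the Gabra6 reads was not tested. A cut at 2.5 CPM on the sum of Cbln3 and Pcp2 was chosen after the data were seen. It left out 9 libraries, among them these 4 RYGB libraries and Sham replicate 3. Libraries called high in cerebellar markers are those above this cut, not those high over the list of 6. The mean log2(CPM + 1) of the 6 was 2.93 in lean replicate 5, left out, and 3.84 in Sham replicate 1, kept. Since the cut removed all 4 RYGB libraries high in Gabra6, the value of Gabra6 without them, 0.78 ± 0.63, describes the remaining libraries and tests nothing. Without these 9 libraries Grik3 (1.90 ± 0.46, edgeR adjusted p = 0.0210) and Grin3a (1.19 ± 0.35, adjusted p = 0.0437) passed the test. Grm8, a presynaptic metabotropic receptor, did so as well (0.76 ± 0.19, edgeR adjusted p = 0.0242), which made 3 higher and 0 lower beside 4.01% of all genes called and 2.45% called as higher. With all libraries Grm8 had 0.19 ± 0.23 (edgeR adjusted p = 0.606), and without Sham replicate 3 alone, which had 51.0 CPM against 3.86 to 14.2 CPM in the other 10 sham libraries, it had 0.78 ± 0.18 (edgeR adjusted p = 0.00578). Leaving out single libraries gave 3.34 to 4.88 for Gabra6, the lowest without RYGB replicate 3 (edgeR adjusted p between 0.000393 and 0.00700).

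**Figure D3:**
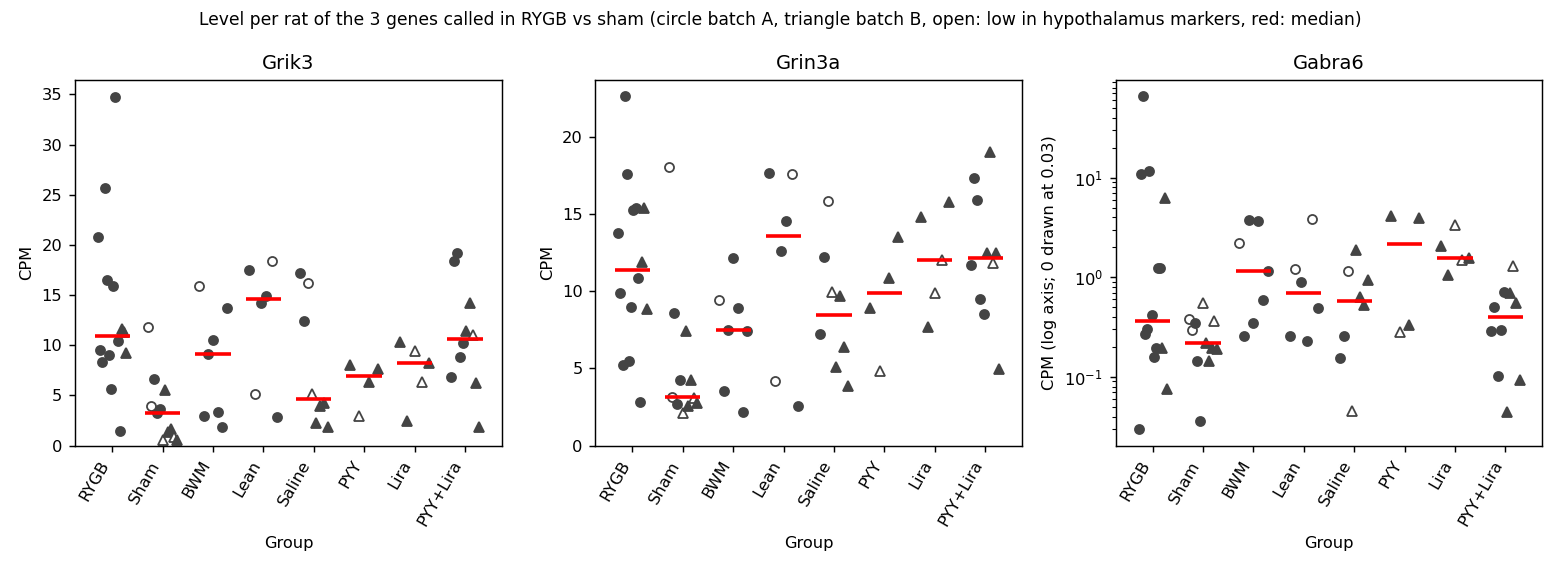
CPM of Grik3, Grin3a and Gabra6 (log axis for Gabra6) in every library by group, with batch A as circles, batch B as triangles, libraries low in hypothalamic markers open, and the group median in red. With both batches pooled, sham has the lowest median of the 8 groups for all 3 genes. For Gabra6 the RYGB median is near that of sham although 4 RYGB libraries lie far above.

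The remaining subunits were described by subfamily. Of the AMPA genes none passed the test, and their log2 fold changes in RYGB vs. sham lay between -0.24 (Gria3) and 0.21 (Gria1), with the smallest p for Gria4 (0.17 ± 0.12, edgeR adjusted p = 0.347). Of the 6 NMDA genes other than Grin3a none passed, the nearest being Grin2c (-0.37 ± 0.14, edgeR adjusted p = 0.0691). Grik1, Grik2, Grik4 and Grik5 lay between -0.14 and 0.07. Grid1, which links presynaptic and postsynaptic membranes through cerebellins, had 0.44 ± 0.18 (edgeR adjusted p = 0.0874), with a median of 37.1 CPM in RYGB and 25.9 CPM in sham. None of the 6 metabotropic genes passed, and the smallest p was that of Grm4 (-0.42 ± 0.25, edgeR adjusted p = 0.247). Of the other 11 GABAA genes, Gabra3 had 0.49 ± 0.18 (edgeR adjusted p = 0.0613), Gabra4 -0.71 ± 0.31 (0.112) and Gabrg3 0.65 ± 0.30 (0.136). Gabbr1 and Gabbr2 had 0.03 ± 0.09 and -0.03 ± 0.19. At an unadjusted p under 0.05 by edgeR there were 8 of 37 members, beside 6570 of all 21871 genes. DESeq2 called 4 members as higher and 0 as lower (15.4% of all genes called), the fourth being Gabra3 (0.50, DESeq2 adjusted p = 0.0425).

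The libraries low in hypothalamic markers were unevenly divided between these groups, 4 of 11 sham and 0 of 14 RYGB. Without all 13 such libraries, 9 of 37 members were higher and 0 lower in RYGB vs. sham, against 11.8% of all genes called and 7.47% called as higher. These were the 3 above with Grin2a (1.74 ± 0.39, edgeR adjusted p = 0.00388), Gria1 (0.97 ± 0.24, 0.00699), Gabra3 (0.74 ± 0.18, 0.00566), Gabrg3 (1.22 ± 0.32, 0.0103), Grm5 (0.97 ± 0.30, 0.0286) and Grid1 (0.63 ± 0.20, 0.0362). With all libraries Grin2a had 0.36 ± 0.44 and Gria1 0.21 ± 0.26. Grin2a had 3.83 CPM in the median sham library and 36.0 CPM in the highest, a library low in hypothalamic markers, against 2.73, 12.6 and 25.5 CPM in the lowest, median and highest RYGB library. In the 13 libraries left out, the median was 109.6 CPM of Gria1 and 59.0 CPM of Grm5, against 72.1 and 36.8 CPM in the other 52. Gabra3 (56.8 against 48.0 CPM) and Grid1 (36.5 against 31.9 CPM) were higher there too, and Gabrg3 was not (3.06 against 3.26 CPM). That choice of libraries was made after the data were seen.

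Ratios within a library were also compared, since subunits that replace each other set the properties of the channel. The log2 ratio of Grin2a to Grin2b per kb, a ratio that rises as NMDA receptors mature, was -2.63, -1.44 and -0.70 in the lowest, median and highest RYGB library and -3.43, -2.91 and -1.60 in sham. The groups overlapped, and the within-batch difference was 0.83 (exact permutation test within batches, two-sided, p = 0.00128, adjusted over 16 comparisons p = 0.0205, n = 14 and 11). Neither batch passed on its own (0.79 for A and 0.91 for B), and the difference was 1.13 without libraries low in hypothalamic markers (adjusted p = 0.00754 in the exact permutation test). Without libraries high in cerebellar markers it was 0.58 (adjusted p = 0.306 in the same permutation test). The ratio of Gria1 to Gria2, which bears on calcium entry, differed by 0.51 (exact permutation p = 0.0354, adjusted p = 0.284). Gabrb1 to Gabrb2 differed by 0.37 (adjusted p = 0.410 in the permutation test). The Gabbr1 to Gabbr2 ratio differed by -0.00296 (adjusted p = 0.989 in the permutation test). None of these ratios passed in BWM vs. sham, RYGB vs. BWM or PYY3-36 + liraglutide vs. saline.

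Within batch A, 1 of 37 members passed in RYGB vs. sham in a model with 1 mean per group and batch (8.64% of all genes called), which was Gabra6 (5.07 ± 1.31, edgeR adjusted p = 0.01497). Within batch B 1 passed (2.74% of all genes called), which was Grik3 (2.59 ± 0.63, edgeR adjusted p = 0.0265). Grik3 was 1.29 ± 0.52 in batch A, where sham libraries had 3.24 to 11.9 CPM and RYGB libraries 1.45 to 34.8 CPM. In batch B the groups did not overlap, with 0.549 to 5.57 CPM in sham and 9.25 to 11.6 CPM in RYGB. Grin3a behaved alike, with 8.87 to 15.4 CPM in 3 RYGB and 2.08 to 7.43 CPM in 6 sham libraries of batch B, and overlap in batch A. Tested directly, the difference between batches had 5 members at an edgeR unadjusted p under 0.05, beside 2268 of all 21871 genes. It passed for 0 of 37 members by edgeR (0% of all genes) and for 1 by DESeq2 (0.745% of all genes).

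That gene was Gabbr2. It had 122 to 292 CPM (median 163) in RYGB and 127 to 419 CPM (median 227) in sham of batch A, but 178 to 276 CPM (median 222) in RYGB and 65.5 to 170 CPM (median 134) in sham of batch B. RYGB libraries were thus lower at the median in batch A and above all sham libraries in batch B. The sham libraries low in hypothalamic markers were the highest in batch A (361 and 419 CPM) and the lowest in batch B (65.5 and 76.8 CPM). Without them the sham median was 167 CPM in batch A (3 rats) and 155 CPM in batch B (4 rats). The fitted values were -0.60 ± 0.21 and 0.87 ± 0.27, and their difference was -1.48 ± 0.35 (edgeR adjusted p = 0.106) or -1.46 by DESeq2 (adjusted p = 0.0141). Without all 13 libraries low in hypothalamic markers the difference was -0.61 ± 0.29 (edgeR adjusted p = 0.713).

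**Figure D4:**
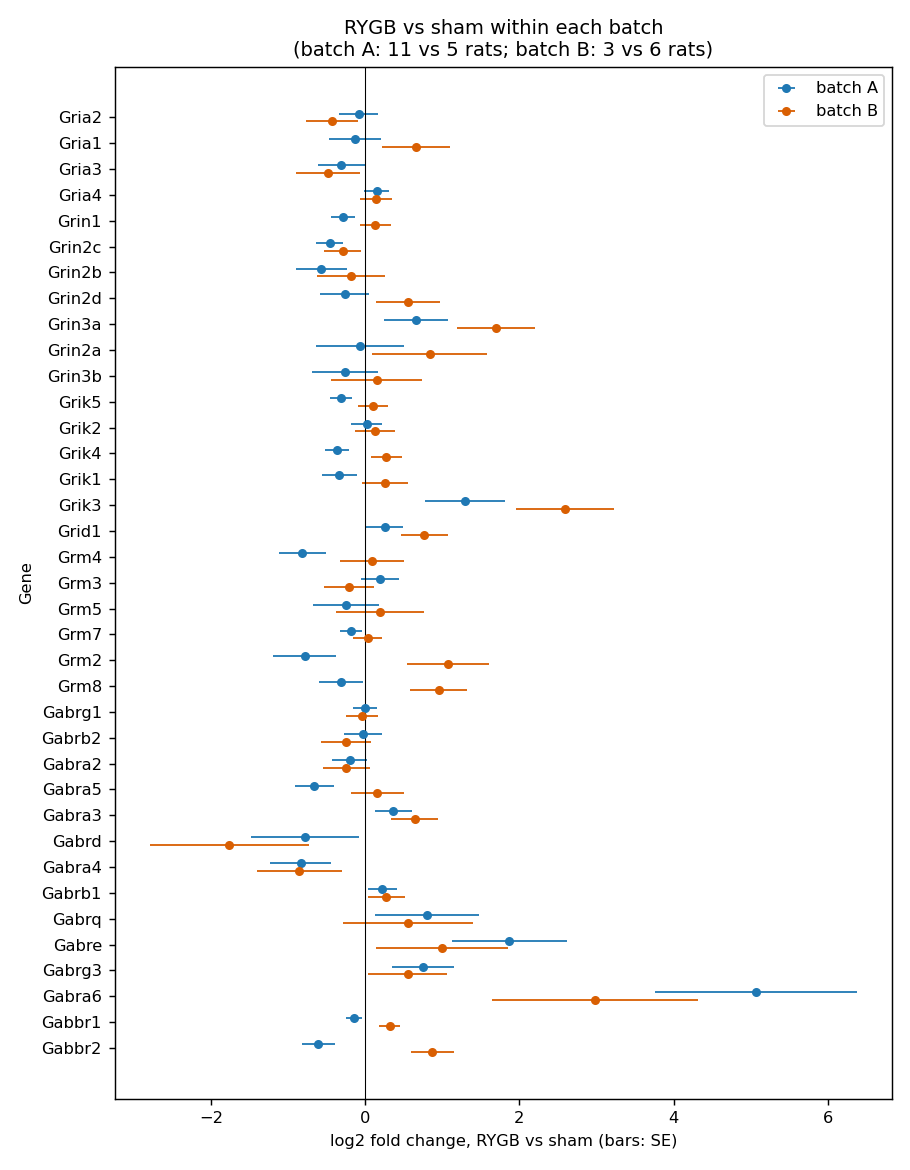
Log2 fold changes of RYGB vs. sham with their SE within batch A (11 and 5 rats) and batch B (3 and 6 rats) for the 37 genes. Grik3, Grin3a and Gabra6 are above 0 in both batches, and Gabbr2 lies on opposite sides of 0.

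Sham and saline controls are both obese rats without bypass or hormone, and their levels of Grik3 and Grin3a were set side by side. Compared with saline, Grik3 was -1.13 ± 0.44 and Grin3a -0.76 ± 0.35 in sham, and neither passed (edgeR adjusted p = 0.285 and 0.355). Saline libraries had 1.85, 4.68 and 17.2 CPM of Grik3 and 3.86, 8.47 and 15.9 CPM of Grin3a in the lowest, median and highest. With both batches pooled, both medians were therefore between those of sham and RYGB. Batches were mixed unequally, with 3 of 8 saline and 11 of 14 RYGB libraries in batch A. Within batch A the saline median was above that of RYGB, for Grik3 (16.2 and 10.4 CPM) and for Grin3a (12.2 and 10.9 CPM). In RYGB vs. saline 0 of 37 members passed by edgeR (0.00457% of all genes) and by DESeq2, and Grik3 had 0.62 ± 0.42. By edgeR 1 member was at an unadjusted p under 0.05, beside 456 of all 21871 genes. In sham vs. saline 0 passed with either tool (0.0137% of all genes by edgeR). There 5 members were at an edgeR unadjusted p under 0.05, beside 2812 of all 21871 genes. RYGB vs. sham, BWM vs. sham, lean vs. sham and sham vs. saline share the sham libraries.

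Food restriction without bypass was compared next. In BWM vs. sham 0 of 37 members passed by edgeR (0.32% of all genes) and by DESeq2. By edgeR 4 members were at an unadjusted p under 0.05, beside 2695 of all 21871 genes. Grik3 had 1.82, 9.09 and 16.0 CPM in the lowest, median and highest BWM library (0.76 ± 0.47) and Grin3a 2.19, 7.46 and 12.1 CPM (0.27 ± 0.38). The smallest p was that of Gabra5, an alpha subunit of extrasynaptic receptors (-0.85 ± 0.26, edgeR adjusted p = 0.117). Sham replicate 2, low in hypothalamic markers, had 253 CPM of Gabra5 against 41.2 to 93.8 CPM in the other 10 sham libraries, and without it the value was -0.43 ± 0.22 (edgeR adjusted p = 0.503). Of the 37 genes 8 were higher and 29 lower in BWM than in sham, with a median of -0.15 beside -0.000896 over all genes. Pituitary markers were higher in BWM (5 of 7 passing, summed level 1.14 to 76751 CPM in BWM and 2.74 to 468 CPM in sham). Their score was 9.58 in BWM replicate 5, 5.38 in replicate 7, 3.09 in replicate 6 and 0.189 to 1.09 in the other BWM libraries. Over all genes, 68 were called as higher and 2 as lower in BWM vs. sham, but 5 and 0 without BWM replicate 5. In RYGB vs. BWM these calls were 2 and 73, and 0 and 2 without that library. Of the members, 10 were higher and 27 lower in BWM than in sham without BWM replicate 5 (median -0.14). Meningeal and choroid plexus genes were higher in BWM too, with median log2 fold changes of 1.93 (0 passing) and 1.69 (1 passing). With pituitary, choroid plexus and meninges covariates 25 members were higher and 12 lower than in sham (median 0.12). The part of each tissue in this tally was not tested. In the comparison of RYGB with BWM, 0 passed with either tool (0.343% of all genes by edgeR). By edgeR 9 members were at an unadjusted p under 0.05, beside 2751 of all 21871 genes. Of the 9, Gabrb1 had the smallest p (0.51 ± 0.16, edgeR adjusted p = 0.207). In BWM vs. saline 0 passed with either tool (0.0412% of all genes by edgeR). There 3 members were at an edgeR unadjusted p under 0.05, beside 1415 of all 21871 genes. BWM replicate 1, 1 of the 13 libraries low in hypothalamic markers, stood above the other 6 BWM libraries for several members, for example Grin1 (719 CPM against 264 to 390 CPM).

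Lean rats had 14.6 CPM of Grik3 and 13.6 CPM of Grin3a in the median library. These were the highest medians of the 8 groups with both batches pooled, but not within batch A for Grik3. The 3 saline rats of batch A had a Grik3 median of 16.2 CPM. Both lean ranges overlapped with sham (2.87 to 18.4 and 2.57 to 17.6 CPM). In lean vs. sham 0 of 37 members passed by edgeR (0% of all genes) and by DESeq2. By edgeR 4 members were at an unadjusted p under 0.05, beside 2674 of all 21871 genes. The 4 included Grik3 (1.33 ± 0.48, edgeR adjusted p = 0.279) and Gabra5 (-0.87 ± 0.27, adjusted p = 0.223). Without Sham replicate 2 the value of Gabra5 was -0.43 ± 0.23 (edgeR adjusted p = 0.405). All lean rats were in batch A, and batch was a term of the model.

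The hormone groups were set against saline. None of the 37 members passed with PYY3-36 (0% of all genes), liraglutide (0%) or both (0.00457%) by edgeR, nor by DESeq2. At an edgeR unadjusted p under 0.05 there were 5, 0 and 0 members in that order. Over all 21871 genes there were 1649, 456 and 554. With PYY3-36 the smallest p was that of Grik4 (0.56 ± 0.19, edgeR adjusted p = 0.652), where 3 libraries had 48.1 to 52.9 CPM and replicate 2, low in hypothalamic markers, had 108 CPM. With both hormones Grik2 had 0.35 ± 0.18 and Gabrg3 0.62 ± 0.34. With liraglutide Grin3a had 0.65 ± 0.43.

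**Figure D5:**
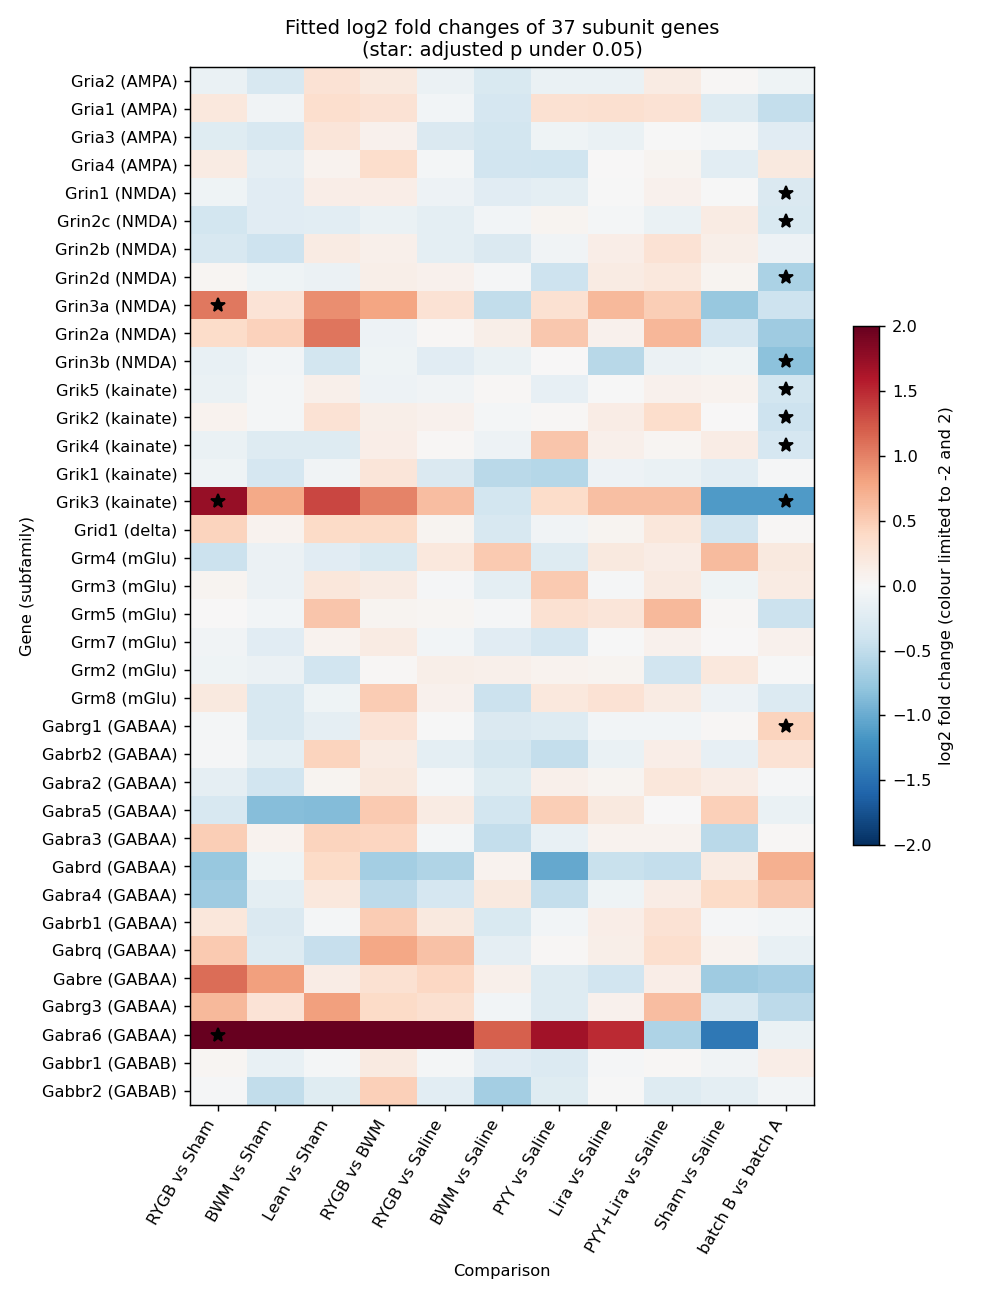
Fitted log2 fold changes of the 37 genes (rows, by subfamily) in 10 comparisons and between batches (columns), with colour limited to -2 and 2 and stars at an edgeR adjusted p under 0.05. Stars stand on 3 genes in RYGB vs. sham and on 9 in batch B vs. batch A, and on none elsewhere.

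More members passed the test between batches than between any pair of groups. In batch B, 1 of 37 genes was higher and 8 were lower than in batch A (edgeR, 40.7% of all genes called, 19.3% as higher and 21.4% as lower). Kainate receptor genes were lower in 4 of 5 cases, namely Grik3 (-1.13 ± 0.30, edgeR adjusted p = 0.00199), Grik2 (-0.42 ± 0.12, 0.00469), Grik5 (-0.37 ± 0.09, 0.000853) and Grik4 (-0.33 ± 0.10, 0.00500). NMDA receptor genes were lower in 4 of 7, namely Grin3b (-0.82 ± 0.26), Grin2d (-0.63 ± 0.19), Grin2c (-0.31 ± 0.11) and Grin1 (-0.29 ± 0.10), with edgeR adjusted p between 0.00638 and 0.0238. Gabrg1 was higher by 0.44 ± 0.09 (edgeR adjusted p = 0.000137), with a median of 107 CPM (64.6 to 185) in batch A and 147 CPM (110 to 217) in batch B. Both ranges overlapped widely. None of the AMPA, delta, metabotropic or GABAB genes passed. In the same contrast ribosomal protein genes were higher in 60 of 78 cases and blood markers in 3 of 3, and their part in the subunit differences was not tested.

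Genes that make, move or anchor the receptors and their ligands were counted from lists, to be read beside 6.52% of all genes called as higher and 6.53% as lower in RYGB vs. sham. In that comparison 2 of 7 GABA synthesis and transport genes were higher, the glial GABA transporter Slc6a11 (1.71 ± 0.37, edgeR adjusted p = 0.00264) and the GABA-degrading enzyme Abat (0.95 ± 0.22, 0.00490). Of 12 GABA receptor scaffold and auxiliary genes 2 were higher, Lhfpl4 (1.29 ± 0.30), which brings GABAA receptors to neuroligin, and Nlgn2 (0.52 ± 0.14), the neuroligin of inhibitory synapses. The GABAB auxiliary subunit gene Kctd12 was lower (-0.60 ± 0.17). Of 17 auxiliary genes of glutamate receptors 0 were higher and 2 lower, the AMPA receptor auxiliary genes Cnih2 (-0.81 ± 0.17, edgeR adjusted p = 0.00212) and Shisa6 (-0.94 ± 0.31, 0.0372). None of 16 glutamate receptor scaffold genes and none of 10 glutamate transmission genes passed. In the other comparisons between groups 0 genes of these 5 lists passed by edgeR. Markers of other tissue moved in the same comparison. The median log2 fold change was 1.15 for meningeal genes (7 of 7 higher, 0 passing), 1.31 for choroid plexus genes (1 of 6 passing), -1.17 for striatal genes (0 of 7 higher, 0 passing) and -0.31 for ribosomal protein genes (14 of 78 lower by the test). With the scores of pituitary, choroid plexus and meninges as covariates, 6 of 37 members passed, all higher (7.92% of all genes called as higher). These were Grik3 (1.99 ± 0.42), Grin3a (1.34 ± 0.32), Gabra6 (3.58 ± 1.04), Grid1 (0.69 ± 0.17), Gabra3 (0.69 ± 0.18) and Gabrg3 (0.95 ± 0.30). With the scores of striatum, cortex and thalamus, 8 passed, all higher (8.24% of all genes called as higher), which were the same 6 with Grin2a (1.005 ± 0.34) and Gabre (1.18 ± 0.40). The part of ribosomal protein genes was not tested.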

How the data were processed

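Poly-A RNA from the hypothalamus of 65 rats was sequenced as stranded single-end reads of 75 nt. The authors trimmed reads with cutadapt, aligned them with STAR 2.7.2b to Rnor_6.0 and counted them per RefSeq gene (release 106) with featureCounts 1.6.4, per the labels and the methods of the study. The deposited table holds estimated counts, because reads shared by genes were divided, and 30.3% of the values above 0 were not whole at a tolerance of 1e-06. Counts were rounded to whole numbers here. Genes were kept by filterByExpr (minimum count 10, minimum total 15), which left 21871, and scaled by TMM. Groups were compared with edgeR 4.0.16 (R 4.3.3, robust quasi-likelihood, group and batch as terms, all 65 libraries in the fit, Benjamini-Hochberg adjusted p under 0.05), and again with DESeq2 1.42.0. CPM are TMM-scaled. Replicates are separate rats. Ratios were tested by exact permutation within batches (numpy 2.4.6), and the fits were tested on simulated data. Named are the genes called in any comparison and, per subfamily, the gene of highest level and that of smallest p in RYGB vs. sham. Other genes, among them Gabrq, Gabre, Gabrd, Gabra4, Grin2a and Gabbr2, were chosen after their values were seen. The members and lists were chosen with earlier results of these data known. Alternatives were other normalization, filter and tool, marker covariates, single batches and left-out libraries. Sequences came from the RefSeq tables of GRCr8, and Rnor_6.0 positions from the deposited table.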

Additional observations from a re-analysis of the deposited data

Results flagged for a closer look

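In 16 members and the groups of 4 to 10 rats, 96 sets of values were searched for a library far from the others of its group by Dixon's test at the 95% level, and 8 were found, where chance flags about 1 in 20 groups. BWM replicate 1 stood above the other 6 BWM libraries for 5 genes. It had 591 CPM of Gria2 (others 163 to 255 CPM), 69.6 CPM of Grik2 (21.6 to 32.6 CPM), 289 CPM of Grik5 (114 to 172 CPM), 719 CPM of Grin1 (264 to 390 CPM) and 60.2 CPM of Grm4 (20.01 to 29.4 CPM). Grik4 was at 108 CPM in PYY3-36 replicate 2 (others 48.1 to 52.9 CPM). Gabra6 was at 3.82 CPM in lean replicate 5 (others 0.229 to 1.21 CPM) and at 1.31 CPM in PYY3-36 + liraglutide replicate 8 (others 0.0446 to 0.706 CPM). All 4 libraries belong to the 13 with a hypothalamus marker score under 3, and the part of this in the values was not tested.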

How the results depend on the processing

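The count of members called in RYGB vs. sham was 3, beside 1425 higher and 1428 lower of all 21871 genes. It became 5 with a neuron marker covariate (1537 and 1396 of all genes). It was 6 with pituitary, choroid plexus and meninges covariates (1733 and 992) and 8 with striatum, cortex and thalamus covariates (1802 and 1520). Without libraries low in hypothalamus markers it was 9 (1640 and 947). With no batch term it was 7 (6 higher, 1 lower), beside 2580 and 3007. It was 0 in batch A alone (309 and 220 of 21775) and 5 in batch B alone (1290 and 1141 of 20628). Leaving out 1 library gave 3 to 6, with 5 without RYGB replicate 3, RYGB replicate 11 or Sham replicate 1 and 6 without Sham replicate 7. BWM vs. sham went from 0 to 3 with no batch term (1517 and 666 of all genes) and to 2 in batch A alone (283 and 63). Lean vs. sham went from 0 to 4 with no batch term (1111 and 1228 of all genes). It went to 1 without libraries low in hypothalamus markers (186 and 17). Without Sham replicate 1 it went to 3 (0 to 3 over all left-out libraries). Sham vs. saline gave 0 to 1, the 1 without Sham replicate 1. The batch count of 9 became 14 with striatum, cortex and thalamus covariates (4810 higher and 5173 lower of all genes). The difference of RYGB vs. sham between batches gave 1 call with DESeq2, and 0 to 1 on leaving out libraries, the 1 without Sham replicate 4 or 5. Replicate numbers did not pair the rats, since 8 of 57 libraries correlated best with their own number. With the replicate number as a block RYGB vs. sham again gave 3 calls (846 higher and 772 lower of all genes). The batch comparison gave 1 (1268 and 1809), and no such fit could be made for the difference between batches. The ratio of Grin2a to Grin2b in RYGB vs. sham lost its call in batch A (0.79), in batch B (0.91) and without libraries high in cerebellum markers (0.58). It ranged from 0.70 to 0.94 on leaving out libraries and lost its call without RYGB replicate 13, Sham replicate 4 or Sham replicate 5. Gria1 to Gria2 passed without libraries low in hypothalamus markers (0.75). None of the following ratios or genes passed in any setting, and their sign turned. Gria1 to Gria2 was -0.0166 in BWM vs. sham without libraries high in cerebellum markers, and -0.23 in batch A and -0.0457 without libraries low in hypothalamus markers for PYY3-36 + liraglutide vs. saline. Gabrb1 to Gabrb2 was 0.26 in BWM vs. sham without the latter, and -0.19 and -0.18 for the hormones in those 2 settings. Gabbr1 to Gabbr2 was 0.36 in batch A and 0.10 without libraries high in cerebellum markers in RYGB vs. sham, and -0.11 for the hormones in batch A. On leaving out libraries, Gria1 to Gria2 ranged from -0.0584 to 0.28 in BWM vs. sham, from -0.0828 to 0.20 in RYGB vs. BWM and from -0.0800 to 0.10 for the hormones. Gabrb1 to Gabrb2 ranged from -0.17 to 0.19 in BWM vs. sham and from -0.12 to 0.17 for the hormones, and Gabbr1 to Gabbr2 from -0.13 to 0.10 in RYGB vs. sham. In RYGB vs. sham Gabbr1 was -0.00247 with no batch term and -0.13 in batch A, and Grm4 was 0.0406 without libraries low in hypothalamus markers and 0.11 in batch B. Gene levels near 0 CPM, as for Gabra6, rest on few reads.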
